A study of Mus musculus with 4 samples.

Results

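Collagen genes encode the chains of the most abundant proteins of the extracellular matrix, and CTCF binding near them was read from region lists of 2 ChIP-seq libraries. The genes were chosen by symbol (Col, a number, a, a number) among the protein-coding genes of chromosomes 1 to 19, which gave 42 of 20665 genes. A CTCF region belonged to a gene when its summit lay within 10 kb of the gene span in mm10. By that rule 81 of the 20043 control regions and 72 of the 16128 regions of the library labelled CTCF knockout lay near a collagen gene. Both libraries were made from isolated cardiac myocytes (left ventricle, C57BL/6 mice), whose chromatin was immunoprecipitated with an Active Motif antibody to CTCF. Each library came from a pool of 3 hearts, control hearts for one and hearts labelled CTCF knockout for the other. The labels used here name no age, sex, Cre driver or allele, and the 2 input libraries were not analysed here. With 1 library per genotype no test between genotypes was possible, so every difference compares a pair of libraries and every 95% interval covers counting error only.

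Region lists hold no expression values, so neither the loss of CTCF itself nor the purity of the myocytes could be checked by marker genes here, and non-myocytes in the pools cannot be told apart from myocytes. The library labelled knockout still held many CTCF regions: 69.0% of all control regions were also called there, meaning that at least 1 bp overlapped. Such a region is called kept, a control region with none is called lost, and a region called in the labelled knockout alone is called knockout-only. The number of reads stacked at a summit, the pileup, was recovered from the deposited fold enrichment and −log10 p. The lowest local background was 1.01 reads in the control and 0.851 in the labelled knockout, a ratio of 0.846 that mixes depth with fragment length. A region may therefore be missing from the labelled knockout through fewer reads, and this was not tested.

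Collagens are secreted or membrane-bound proteins whose chains coil around each other. Fibrillar collagens such as types I and III form the rope-like fibrils that carry tension in the heart wall and accumulate in fibrosis. Network-forming collagens such as type IV make the basement membrane that surrounds each myocyte. In the heart the fibrillar types are made mainly by fibroblasts, whereas the libraries came from isolated myocytes. CTCF is a zinc-finger protein that binds insulators and anchors chromatin loops, and several collagen genes, such as Col4a1 and Col4a2, are arranged head to head around a shared promoter.

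CTCF summits lay within 1 kb of an annotated start in 4 of the 33 collagen genes found in the RefSeq promoter table (GRCm38.p6, the assembly of mm10). That table gave 13.8% of its 16457 genes a control summit within that distance, so the collagen share was near the background. In the labelled knockout 3 of the 33 genes had such a summit, against a background of 9.65%. The 3 genes with a start-site summit in both libraries were Col27a1, Col6a2 and Col23a1. The 250 bases before the start at which each summit lay are printed because they are the collagen promoters under a called region. Capitals mark matches to AGGNGGC, a short core of the CTCF motif searched on both strands.
Col27a1, chr4:63215162-63215411, plus strand: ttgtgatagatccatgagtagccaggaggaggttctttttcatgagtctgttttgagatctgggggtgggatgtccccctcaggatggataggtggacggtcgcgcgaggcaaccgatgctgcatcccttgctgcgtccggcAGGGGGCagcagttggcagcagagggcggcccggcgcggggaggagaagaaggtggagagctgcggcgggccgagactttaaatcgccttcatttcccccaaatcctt
Col6a2, chr10:76623405-76623654, minus strand: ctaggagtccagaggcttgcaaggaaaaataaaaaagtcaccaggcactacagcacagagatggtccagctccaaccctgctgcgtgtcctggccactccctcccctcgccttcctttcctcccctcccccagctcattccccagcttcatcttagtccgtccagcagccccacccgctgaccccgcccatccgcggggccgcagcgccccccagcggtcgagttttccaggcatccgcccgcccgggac
Col23a1, chr11:51289670-51289919, plus strand: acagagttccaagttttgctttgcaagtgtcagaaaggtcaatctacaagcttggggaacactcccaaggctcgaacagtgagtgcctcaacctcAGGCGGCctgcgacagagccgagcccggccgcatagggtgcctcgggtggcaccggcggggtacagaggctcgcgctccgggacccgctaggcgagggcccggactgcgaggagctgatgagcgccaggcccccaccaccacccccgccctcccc

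At Col27a1, which encodes a fibrillar collagen of cartilage, the control region chr4:63215145-63215520 covered the whole printed stretch. Its fold enrichment is the deposited ratio of reads to local background, taken here to have a small constant added to both. It was 11.7 with a pileup of 26 reads, and 13.7 with 27 reads in the labelled knockout. The control summit lay at -123 bp and the labelled-knockout summit at -88 bp relative to the start, and the capital letters AGGGGGC begin 108 bp before it. At Col6a2, a chain of the type VI microfilaments that link cells to the matrix, the region chr10:76623409-76623544 lay inside the printed stretch. It had a fold enrichment of 6.04 with 13 reads in the control and 9.19 with 16 reads in the labelled knockout. The summits were at -37 and -40 bp, and the stretch holds no AGGNGGC on either strand. Only this short string is marked, so its absence does not mean that the stretch lacks a CTCF-like sequence. At Col23a1, a transmembrane collagen, the region chr11:51289549-51289868 overlapped the stretch and had its control summit at -298 bp and its labelled-knockout summit at -289 bp. Its fold enrichment was 8.37 with 25 reads in the control and 15.1 with 30 reads in the labelled knockout, and AGGCGGC begins 155 bp before the start. These 3 genes were picked for having a start-site summit in both libraries, and the pileups of the regions given differed by no more than 5 reads. Col27a1 had a second, weaker region, chr4:63215934-63216069, with its control summit 609 bp inside the gene from the start. Its fold was 3.88 with 8 reads in the control and 5.36 with 10 reads in the labelled knockout. The fourth gene, Col5a1, a chain of the type V collagen that sets fibril diameter, had its control summit 845 bp inside the gene from the start. That region had a fold enrichment of 5.48 with 10 reads and was lost.

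AGGNGGC was found in 10 of the 33 collagen promoters (30.3%), counted over the 300 bases from 250 before to 50 after a start. The same letters were in 36.6% of the 16457 promoters of that length in the table. A match is a description of the letters and not a site. Col1a1, Col2a1, Col4a3, Col5a2, Col9a3, Col12a1, Col14a1, Col22a1 and Col26a1 have no entry in the promoter table, so for them positions are given from the gene ends without a strand.

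Of the 42 genes, 35 (83.3%) had at least 1 control region within 10 kb, against 52.3% of the other protein-coding genes of the same chromosomes. Collagen genes were also longer, with a median length of 110 kb against 17.4 kb. Counted per megabase of gene and flank, collagen genes had 14.2 control regions (exact Poisson 95% interval 11.3 to 17.7), beside 14.6 for the other genes. The pooled densities mix genes of different lengths, so both measures were also read within 4 length classes. Under 30 kb, 6 of 9 collagen genes had a control region (66.7%, against 46.0% of other genes), and the density was 32.1 per megabase (16.6 to 56.1) against 25.2. From 30 to 100 kb it was 8 of 9 genes (88.9%, against 59.8%) and 16.3 per megabase (7.81 to 29.9) against 15.5. From 100 to 200 kb, where 18 collagen genes fall, 16 had a control region (88.9%, against 71.8%), and the density was 16.2 per megabase (11.8 to 21.6) against 10.8. At 200 kb or more it was 5 of 6 genes (83.3%, against 76.4%) and 7.53 per megabase (4.21 to 12.4) against 5.42. In each of the 4 classes both the share of genes and the density were higher for collagen genes, while the counting interval of the density left out the value of the other genes in the class of 100 to 200 kb alone.

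**Figure D1:**
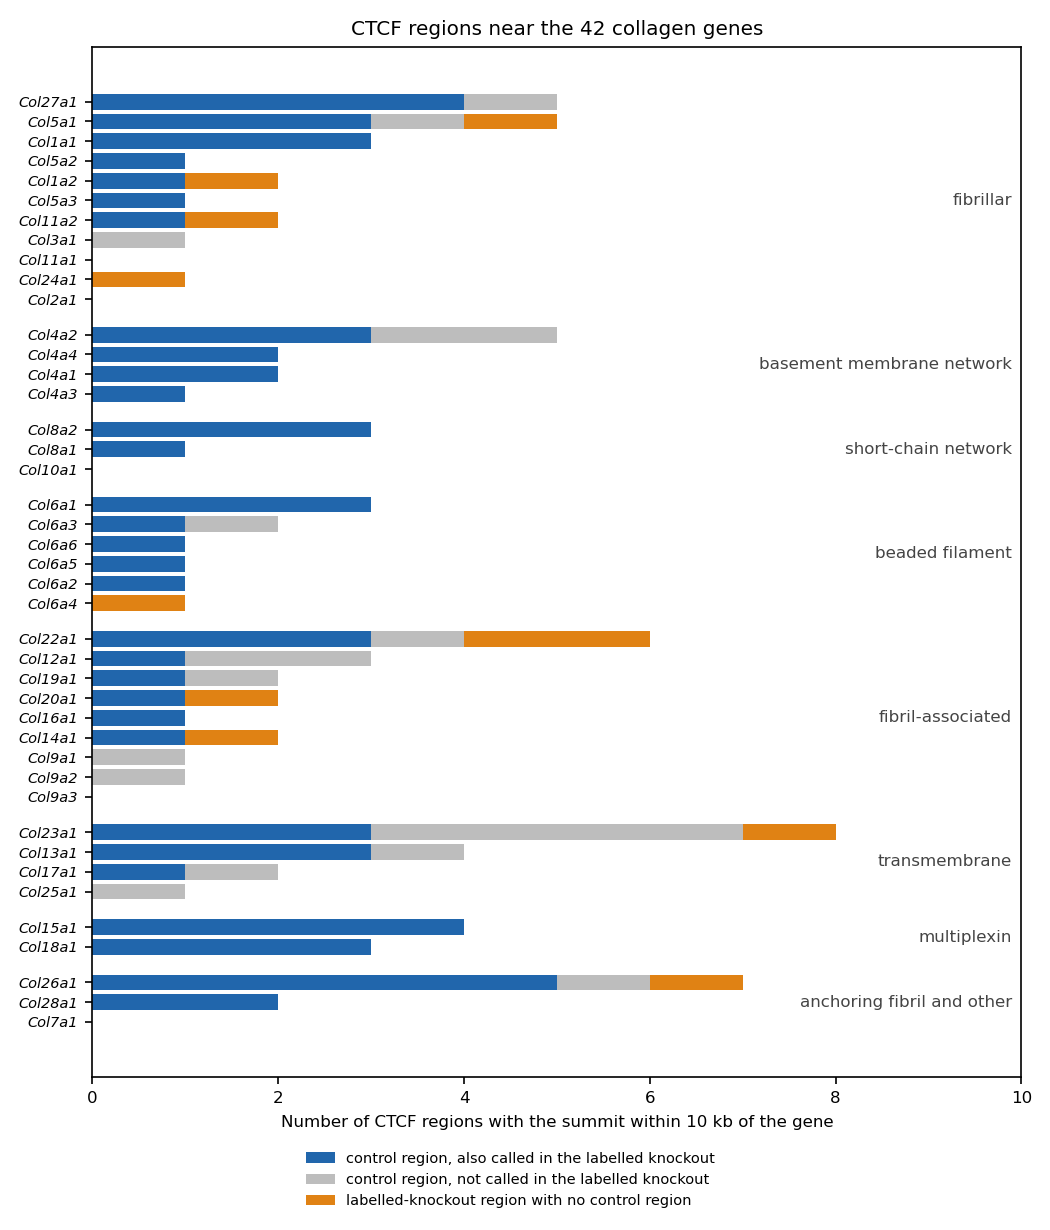
CTCF regions with the summit within 10 kb of each of the 42 collagen genes, grouped by structural class; the x axis is the number of regions. Blue marks control regions also called in the labelled knockout, grey those not called there and orange regions of the labelled knockout with no control region; Col23a1 has the most control regions (7), and 5 genes have no bar.

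The genes differed in how many regions they held. A single control region was found at 16 genes and 4 or more at 8: Col23a1 with 7, Col26a1 with 6, Col4a2 and Col27a1 with 5, and Col5a1, Col13a1, Col15a1 and Col22a1 with 4. A labelled-knockout region lay near 33 of the 42 genes (78.6%), against 46.2% of the other protein-coding genes, which are shorter. Regions in both lists were found at 31 genes, and that share was not computed for other genes. Col3a1, Col9a1, Col9a2 and Col25a1 had regions in the control alone, and Col6a4 and Col24a1 in the labelled knockout alone. No region in either list lay near Col2a1, Col11a1, Col9a3, Col7a1 or Col10a1. Types II, IX, X and XI are collagens of cartilage and type VII forms the anchoring fibrils of skin. Col11a2, Col9a1 and Col9a2, of the same types as some of these, did have regions, those of Col11a2 outside the gene span. So did Col27a1, also a collagen of cartilage, with 5 control regions.

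Of the 81 control regions 62 were kept, or 76.5% (Wilson 95% interval 66.2 to 84.4%), and 19 were lost. The share was 69.0% over the whole control list and 68.4% near the other protein-coding genes, and both lie inside the collagen interval. Regions of the same control fold enrichment, matched in 10 bins, would give 69.7%. In the labelled knockout 11 of the 72 regions were knockout-only, or 15.3% (8.75 to 25.3%), beside 14.2% over its whole list. The shares of kept and of knockout-only regions near collagen genes thus had counting intervals that include the background.

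Kept and lost regions differed in strength much as they did in the whole list. The median control fold enrichment was 7.92 at kept and 5.48 at lost collagen regions, against 8.14 and 5.48 over all regions, and the median pileup was 17 against 11 reads. At or above the median fold of the whole control list, 39 of 43 collagen regions were kept (90.7%), against 88.9% of all regions that strong. Below it 23 of 38 were kept (60.5%, 44.7 to 74.4%), against 47.7%. The strengths overlapped, since kept regions ranged from 3.52 to 36.8 and lost ones from 3.59 to 7.98. Lost regions reached a fold of 15.2 in the whole list, which holds far more of them than the collagen genes do.

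**Figure D2:**
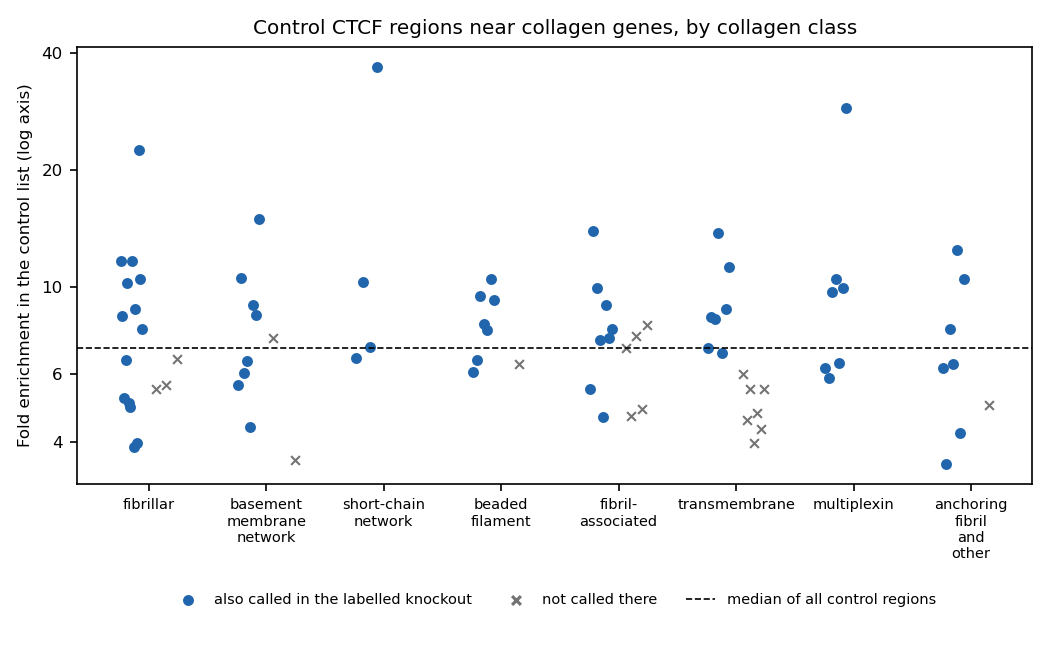
Deposited fold enrichment (log axis) of the 81 control regions near collagen genes, by structural class; each point is a region, blue where it was also called in the labelled knockout and a grey cross where it was not. The dashed line is the median of all control regions, 6.98; 4 of the 19 crosses lie on or above it, and all 7 crosses of the transmembrane class lie below it.

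Of the fibrillar collagen genes, 8 of 11 had control regions, and 14 of 17 regions were kept (82.4%, 59.0 to 93.8%). Col1a1, which encodes the main chain of type I collagen, had 3 regions, and all were kept. The first, chr11:94936818-94937285, lay 862 bp inside the lower-coordinate end and was among the strongest near any collagen gene, with a fold enrichment of 22.4 and 51 reads in the control and 18.5 and 37 reads in the labelled knockout. The others had control folds of 10.5 and 7.79 and labelled-knockout folds of 12.5 and 5.85. The partner chain Col1a2 differed in layout, with its kept region 4.36 kb beyond the gene (11.7 in the control, 8.78 in the labelled knockout) and a knockout-only region close by. Col5a2 (4.92 and 5.94), Col5a3 (8.44 and 7.56) and Col11a2 (5.04 and 4.88) each had a single kept region. That of Col11a2 lay 4.56 kb outside the gene with its summit inside another gene, Rxrb, so it is counted by distance alone.

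At Col5a1 the 3 kept regions had control folds of 5.18, 6.48 and 10.2 and folds of 6.48, 7.02 and 10.3 in the labelled knockout. Col27a1 had 4 kept regions and a lost one, chr4:63319689-63319827, with a fold of 6.55 and 14 reads. Its kept regions form 2 pairs of neighbours, one at the start and one 93.6 and 93.9 kb from the lower-coordinate end. Both members of the second pair overlap 1 region of the labelled knockout. Col3a1, which encodes type III collagen, had a single region 2.67 kb inside the gene from the start (5.61, 12 reads), and it was lost. Fibrillar genes thus ranged from Col1a1, with every region in both lists, to Col3a1, with its region in the control alone.

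The basement membrane genes Col4a1, Col4a2, Col4a3 and Col4a4 had 10 control regions, of which 8 were kept, and no knockout-only region. Col4a3 had the strongest, chr1:82641746-82641968, at 14.96 with 29 reads in the control and 15.1 with 27 reads in the labelled knockout. Col4a4 had kept regions of 8.97 and 8.47 (11.2 and 5.94 in the labelled knockout). At Col4a1 the fold was 10.5 and 5.61 in the control and 6.05 and 6.48 in the labelled knockout. The stronger of these, chr8:11253513-11253796, went from 29 to 13 reads. Both lost regions of the class lay in Col4a2: chr8:11421062-11421445 had a fold of 7.42 and 24 reads, the most reads of any lost collagen region, and the other had a fold of 3.59. A kept Col4a2 region next to the first of these, chr8:11419761-11420097, had a fold of 6.47 with 14 reads in the control and 12 in the labelled knockout.

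Neither head-to-head pair had a CTCF region where its genes meet. The spans of Col4a1 and Col4a2 overlap by 85 bp, and the nearest control summits lay 59.1 kb to the Col4a1 side and 80.1 kb to the Col4a2 side. The spans of Col4a4 and Col4a3 overlap by 114 bp, with summits 32.3 and 54.8 kb away. In the labelled knockout the distances were 59.1 and 80.1 kb for the first pair and 32.4 and 54.8 kb for the second. The shared promoters of the type IV genes therefore lay between the nearest regions in both libraries rather than under one. Other neighbouring collagen genes had no region in the gap between them either: Col3a1 and Col5a2 (24.6 kb apart), Col9a1 and Col19a1 (4.94 kb), Col6a6 and Col6a5 (27.8 kb), Col6a5 and Col6a4 (27.9 kb), and Col6a2 and Col6a1 (85.2 kb). The control region closest to such a gap was in Col6a2, 189 bp inside the gene at its start. Gaps between neighbouring genes other than collagens were not counted, so the empty gaps have no background beside them.

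The short-chain genes Col8a1 and Col8a2, whose product forms lattices in vessels and the cornea, had 4 control regions, and all were kept. The strongest region near any collagen gene, chr4:126321500-126321980, was one of them, with a fold of 36.8 and 74 reads in the control and 25.1 and 57 reads in the labelled knockout. Its summit lay 7.46 kb beyond Col8a2 and 91 bp from an end of another gene, Adprhl2, so it is counted here by distance alone. A second Col8a2 region, 8.68 kb outside the gene, had a fold of 10.3 with 20 reads in the control and 4.86 with 8 reads in the labelled knockout. That pair had the lowest ratio of reads among the kept collagen regions, 0.400 (95% interval 0.152 to 0.948). The interval includes 0.867, the median ratio of all kept regions. Inside Col8a2 the folds were 7.03 and 6.83, and at Col8a1 they were 6.59 in the control and 11.3 in the labelled knockout.

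The beaded-filament genes of type VI kept 7 of 8 control regions. Col6a1 had 3, all beyond the gene by 2.54, 7.41 and 9.15 kb on the side of its start, with control folds of 6.48, 9.47 and 8.04 and labelled-knockout folds of 6.34, 6.34 and 9.13. Col6a6 (10.5 and 10.8) and Col6a5 (9.25 and 5.87) each had a kept region. Col6a3 kept the region inside the gene (7.77 and 6.09) and lost the one 6.11 kb beyond it (6.33, 12 reads). Col6a4 had a knockout-only region alone, with a fold of 5.19 and 11 reads. Each of the 6 genes had a region in the labelled knockout, and 5 had one in the control. Among the other protein-coding genes of 100 to 200 kb, 62.6% had a labelled-knockout region and 71.8% a control region. Over other genes of all lengths the shares were 46.2% and 52.3%.

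Fibril-associated collagens sit on the surface of fibrils, and 8 of 9 of their genes had control regions. Of 13 regions 8 were kept (61.5%, 35.5 to 82.3%), and 4 of the 12 labelled-knockout regions were knockout-only. The strongest was the only control region of Col14a1, chr15:55306369-55306588, 1.17 kb outside the gene's lower-coordinate end. Its fold was 13.96 with 27 reads in the control and 13.5 with 24 reads in the labelled knockout. Kept regions also lay in Col22a1 (control folds of 9.97, 7.30 and 4.65), Col12a1 (8.97), Col20a1 (7.79), Col16a1 (7.42) and Col19a1 (5.48). In the labelled knockout these were 7.75, 6.83 and 6.59 at Col22a1, 5.26 at Col12a1, 9.26 at Col20a1, 4.27 at Col16a1 and 7.10 at Col19a1.

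This class also held the strongest lost region near any collagen gene. It was chr4:121041031-121041280, 1.6 kb inside Col9a2 from the start, with a fold of 7.98 and 15 reads. The single Col9a1 region, chr1:24249298-24249534, had a fold of 6.98 with 13 reads and was also lost. It lies within 10 kb of Col19a1 as well, and is counted once among the regions. At Col12a1, a collagen of tendon and other dense tissue, 2 of 3 regions were lost, and the stronger, chr9:79721194-79721409, lay 0.168 kb beyond the higher-coordinate end (7.48, 14 reads). Col22a1 also lost a region (4.66, 9 reads). Chains of type IX had no region in the labelled knockout, while the long gene Col22a1 had regions in both lists. For type IX this rests on the single control regions of Col9a1 and Col9a2, too few to set against the 69.0% kept in the whole list.

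The transmembrane genes Col13a1, Col17a1, Col23a1 and Col25a1 had 14 control regions, of which 7 were kept (50%, 26.8 to 73.2%). The interval includes the 69.0% of the whole list. All 7 lost regions had control folds from 3.99 to 5.98, below the whole-list median of 6.98, while the kept ones had a median of 8.37. Col23a1 held 4 of the lost regions and the strongest kept one, chr11:51539632-51539984, with a fold of 13.8 and 31 reads in both libraries. One lost Col23a1 region (5.48, 10 reads) lay 82 bp from that labelled-knockout region, so the loss there is of a neighbour beside a kept region. Another (4.74, 9 reads) lay 164 bp from an end of the gene Phykpl. At Col13a1, 3 of 4 regions were kept with control folds of 11.3, 8.76 and 6.76 and labelled-knockout folds of 8.36, 9.46 and 9.51. Col17a1, a protein of the junctions that fix skin cells to the basement membrane, kept a region of 6.98 (6.48 in the labelled knockout) and lost one of 5.98. Col25a1, a neuronal collagen and the longest of the 42 genes at 420 kb, had a single region (5.48, 10 reads), and it was lost.

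The multiplexins Col15a1 and Col18a1 encode basement membrane collagens that carry sugar side chains, and all 7 of their control regions were kept. The Wilson interval of that share starts at 64.6%, below the 69.0% of the whole list. Col18a1, the source of endostatin, held chr10:77130603-77130930 with a fold of 28.9 and 57 reads in the control and 19.8 and 36 reads in the labelled knockout. Its other regions had control folds of 9.97 and 6.37 and labelled-knockout folds of 15.7 and 8.96. Col15a1 had 4 regions with control folds of 6.20, 5.84, 9.74 and 10.5 and labelled-knockout folds of 10.6, 7.56, 8.42 and 10.2. All 4 lay within the gene between 27.3 and 48.2 kb from its lower-coordinate end. Of the other genes, Col26a1 kept 5 of 6 regions and Col28a1 kept both. The strongest Col26a1 region had a fold of 12.5 with 24 reads in the control and 6.99 with 17 reads in the labelled knockout, and the lost one had a fold of 4.99. The Col28a1 regions were weak, at 6.20 and 3.52 in the control and 5.94 and 5.40 in the labelled knockout.

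**Figure D3:**
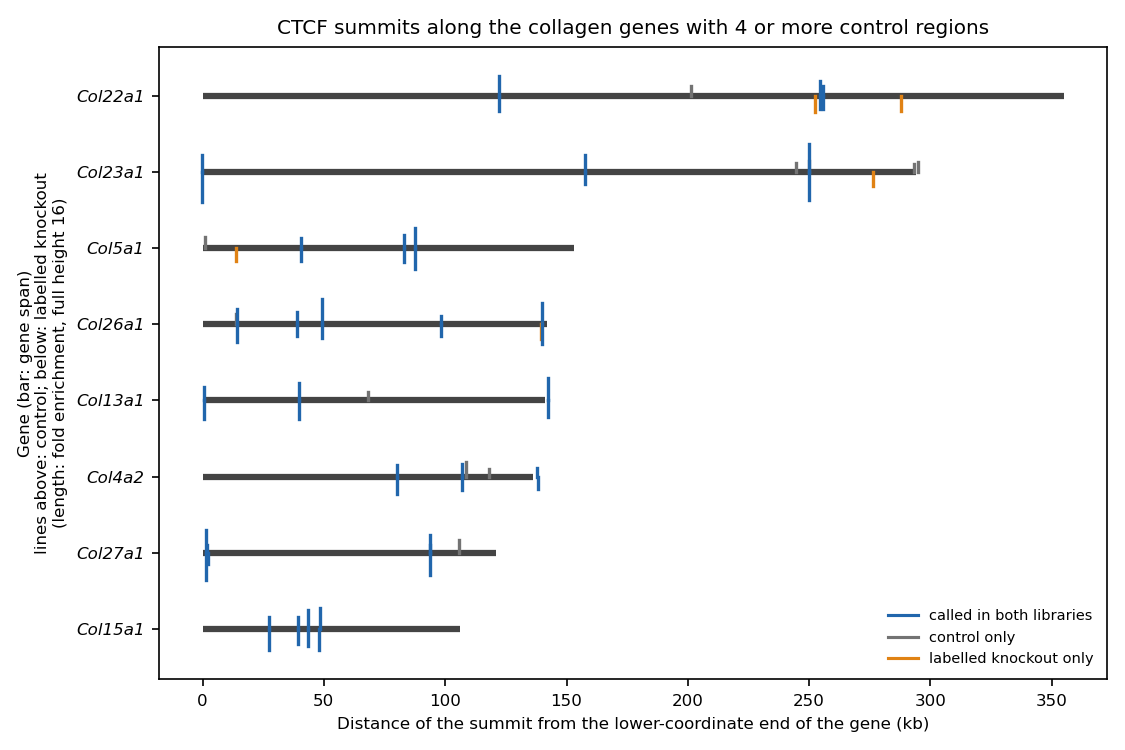
CTCF summits along the 8 collagen genes with 4 or more control regions; the x axis is the distance in kb from the lower-coordinate end of the gene, and the dark bar is the gene span. Lines above the bar are control summits and lines below it labelled-knockout summits, drawn as long as their fold enrichment (full height 16) and coloured by whether the region was called in both libraries; the 4 pairs of Col15a1 lie between 27.3 and 48.2 kb and the 4 grey lines of Col23a1 lie 245 kb or more from its lower-coordinate end, the last just beyond the gene.

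The 11 knockout-only regions lay near 10 genes. The highest fold was 9.73 with 17 reads, at chr17:34075306-34075529, 8.74 kb beyond Col11a2. In Col22a1 there were 2, chr15:72048230-72048436 (8.10, 14 reads) and chr15:72083723-72083945 (7.56, 13 reads). Col23a1 had chr11:51566082-51566268 (7.31, 14 reads). In Col26a1 the region chr5:136881185-136881443 (7.23, 13 reads) directly abuts a kept control region, with a gap of 0 bp. The others were at Col5a1 (6.59), Col24a1 (6.48), Col1a2 (6.48), Col14a1 (5.40), Col6a4 (5.19) and Col20a1 (4.32). Of the 11 regions 4 lay within 1 kb of a control region, at Col26a1, Col20a1, Col14a1 and Col1a2, so they sit beside a region both libraries share.

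Most collagen regions were inside the genes. The summit lay within the gene span for 66 of 81 control regions (81.5%), against 66.9% near the other protein-coding genes, which are shorter. Inside the genes 51 of 66 regions were kept (77.3%, 65.8 to 85.7%) and outside them 11 of 15 (73.3%, 48.0 to 89.1%). Within 1 kb of a collagen gene end 4 of 8 were kept, with an interval of 21.5 to 78.5%. The shares for position thus overlapped at these numbers. Exons and introns are not separated in the gene table used here. At kept regions the summits in the libraries were a median of 33.5 bp apart, and 56 of 62 were within 100 bp.

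At the 62 kept regions the labelled knockout had a median of 0.923 times the control reads, beside 0.867 for all 13832 kept regions. No interval is given for this median, because the regions share genes and libraries and are not replicates. Regions too weak to be called in the labelled knockout are left out, so both medians can lie above the ratio over all control regions. Reads were lower in 34 pairs, equal in 9 and higher in 19 (30.6%). Over all kept regions 8950 were lower, 1011 equal and 3871 higher (28.0%), so the collagen counts were near that background. The interval of the ratio left out 0.867 in 1 of the 62 pairs, beside 1.92% of all kept regions. That pair was a small Col27a1 region, chr4:63307776-63307911, with 7 control reads, which shares its labelled-knockout region of 22 reads with a stronger neighbour (ratio 3.14, 1.30 to 8.71). At a control pileup of at least 15 reads the median was 0.820 over 42 collagen regions and 0.810 over all 9848 such regions.

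**Figure D4:**
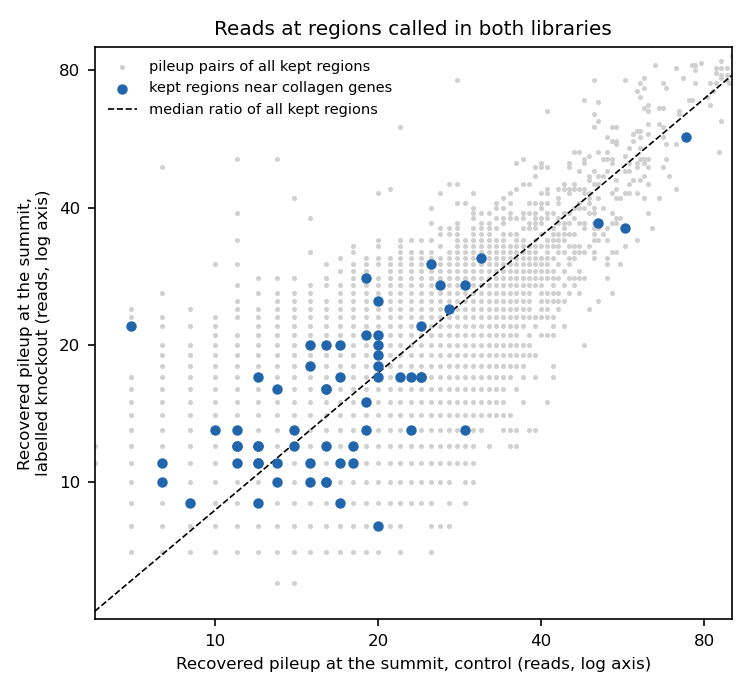
Reads at the summit in the control (x, log axis) and the labelled knockout (y, log axis) for kept regions; blue points are the 62 regions near collagen genes, grey points all kept regions within the plotted range, and the dashed line is their median ratio of 0.867. Most collagen points follow the grey cloud, and the point farthest above it at 7 control reads is the Col27a1 region that shares its labelled-knockout region with a neighbour.

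Other genes of the collagen pathway were read in the same way from 5 lists with 51 genes on these chromosomes. They had 77 control regions, of which 54 were kept (70.1%, 59.2 to 79.2%), and 7 of 62 labelled-knockout regions were knockout-only. By list, 15 of 25 regions were kept near genes of collagen modification and folding and 15 of 23 near those of propeptide cleavage and crosslinking. The counts were 6 of 7 for fibril-binding proteins, 10 of 13 for collagen receptors and 8 of 9 for collagenases and their inhibitors. The strongest kept regions lay near Tll2, a protease of the propeptide-cleaving family (19.96 and 21.1 in the labelled knockout), and Mmp2, a gelatinase (17.2 and 11.6). The strongest lost ones lay in Itga1 (7.36), a subunit of a collagen receptor, and, with equal folds, at Itga2, another such subunit, and P4ha3, a prolyl hydroxylase (7.30 each). The strongest knockout-only ones were near Postn, which encodes periostin (6.60), and in P3h2, a prolyl hydroxylase (6.48). The kept share of the pathway genes and that of the collagen genes have overlapping intervals, and both include 69.0%.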

How the data were processed

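The deposited files are 1 list of CTCF regions per library, called separately in the control and the labelled knockout. The submitters' processing notes name MACS2, SAMtools 0.1.19, Bowtie2 2.2.6 and the mm10 build. How regions were thresholded, duplicates treated and libraries scaled is not given in the sources used here. The deposited columns are the fold enrichment (a ratio over local background), −log10 p, −log10 q, a score and the summit position. The fold is the authors' value for each region and was used to describe and rank regions within its own list; no direction is read from folds set side by side.

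Regions were used as deposited. The pileup was solved from the fold and the −log10 p. The fold was assumed to have 1 added to both reads and background, and the p to be a Poisson upper tail. In each list 100% of regions had a whole number of reads that returned their −log10 p to within 0.001. A run on simulated data used this same model, so it checked the solving step and not whether the deposited columns follow the model. Read depth is unknown. Gene spans, promoters and starts came from RefSeq tables of GRCm38.p6. Shares have Wilson 95% intervals. The rule named every collagen gene with a region, those within 1 kb of a start, the 5 strongest kept, lost and knockout-only regions, the head-to-head pairs, and 2 of each kind for the pathway lists. Other regions were added for completeness of each class. Alternatives were thresholds on −log10 q and fold, overlap rules, windows, equal-length lists, scaling by the lowest backgrounds and motif letters. The members and lists were chosen with earlier results of these data known. Bgn, on X, was left out of the lists, as were Col4a5 and Col4a6 of the collagen genes. The software was matplotlib 3.10.9, scipy 1.17.1, pandas 2.3.3, numpy 2.4.6 and Python 3.11.15.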

Additional observations from a re-analysis of the deposited data

How the results depend on the processing

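The kept share of collagen control regions minus that of all control regions was 7.53 percentage points and stayed positive, from 3.09 to 10.02, under the 10 alternatives run. With a pileup of at least 15 reads in both lists, an alternative chosen after seeing the data, the collagen share was 65.9% beside 62.8% of all regions, over 44 control and 32 labelled-knockout regions with 3 knockout-only. A window of 50 kb gave 142 control and 127 labelled-knockout regions with 19 knockout-only. There were 18 knockout-only regions with a reciprocal overlap of at least 50% and 17 with lists of equal length. Of all control regions 59.8% were kept under the first of these rules and 78.5% under the second. The knockout-only share of the whole list is not given for these alternatives, so the knockout-only counts have no background beside them. The median ratio of reads was 1.09 after division by the ratio of the lowest backgrounds, beside 1.02 for all kept regions scaled alike. AGGGGGC was in 6 of 33 collagen promoters (18.2%, beside 14.8% of all promoters) and AGNNGGC in 24 (72.7%, beside 66.4%). With both, the collagen share lay above that of all promoters, whereas with AGGNGGC it lay below (30.3% beside 36.6%). The motif letters, window, overlap rule, minimum pileup, equal-length lists and scaling each change what is counted or divided by construction. Any further cause was not tested. Leaving out regions within 1 kb of an end of another protein-coding gene, also chosen after seeing the data, gave 77.2% of 79 regions kept. No paired analysis was possible because there was a single ChIP library for either genotype. Pileups near 10 reads leave wide intervals for the ratio of a single pair.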
